A study of Rattus norvegicus with 6 samples.

Results

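The numbered zinc finger protein genes are the genes that carry the symbol Zfp followed only by a number in the deposited table of rat genes. The table holds 281 such genes under 254 symbols, of 23091 genes in all. Of these 252 were tested, 13 fell below the filter on low counts and 16 were at 0 counts throughout. The data are polyadenylated RNA of 6 samples of wild-type rat marrow mesenchymal stem cells (plastic-adherent stroma that can form bone, cartilage and fat), kept in neural differentiation media for 7 days. The 3 CK samples received the solvent DMSO, and the 3 CYSP samples received CYSP, an abbreviation left unexplained in the labels. Both groups were in these media, so the comparison bears on CYSP against solvent within them. Whether the cells became neuron-like was not measured. The labels give neither strain, age nor sex and do not say that the replicates were separate animals or cultures, so p-values rest on the spread of these samples alone, which may be a technical one.

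A zinc finger is a short loop of protein held by a zinc ion between cysteine and histidine residues, and strings of such fingers read DNA or RNA sequence. Many of these proteins also carry a KRAB domain, which recruits the scaffold protein Trim28. Trim28 in turn brings histone methyltransferase, heterochromatin protein and deacetylase activities to the DNA that the fingers bind, and much of that DNA is transposon-derived. Other numbered Zfp proteins have no KRAB domain and act in fat-cell commitment, neural development, mRNA decay or ribosome quality control. The symbol is shared by convention, so the genes below are a nomenclature class and not 1 pathway.

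Libraries held from 15060933 to 17244700 counts. A count of 0 allows up to 3 counts (counting error only), which is 0.169 to 0.205 in CPM, the count scaled to the library total with TMM factors. Correlations of log2 CPM were between 0.9908 and 0.9918 within a group and between 0.8132 and 0.8163 across groups. The summed CPM of 6 stromal markers was 4050 to 4120 in CK and 2940 to 3010 in CYSP, with 4 of 6 higher and 2 lower. The summed CPM of 6 leukocyte and macrophage markers was 837 to 955 in CK and 393 to 395 in CYSP, so these markers were detected in cells labelled as stromal. The 6 neuron markers summed to 12.1 to 13.5 CPM in CK and 85.8 to 90.5 CPM in CYSP, with Rbfox3 at 0 in every sample. Within that sum Snap25 and Tubb3 rose, Map2 fell from 4.27 ± 0.352 to 1.35 ± 0.19 CPM, and Nefl was at 0 in CYSP. The 3 fat-cell markers summed to 0.169 to 0.664 CPM in CK and 506 to 532 CPM in CYSP, almost all of it Adipoq, while Plin1 was at 0 in CYSP. The 3 cycling markers summed to 449 to 503 CPM in CK and 169 to 180 CPM in CYSP, and 3 endothelial markers stayed under 2 CPM in all samples. The part of these shifts in the results below was not tested, and in bulk RNA fewer cells of a type and less RNA per cell cannot be told apart.

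Most numbered Zfp genes changed little, and those that passed the test went both ways. Of the 252 tested, 69 rose (27.4%), 87 fell (34.5%) and 96 did not pass (38.1%), with edgeR (quasi-likelihood, Benjamini-Hochberg over all genes tested, threshold 0.05). Over all 12623 genes tested, 38.2% were higher in CYSP, 37.8% were lower and 76.1% passed in either direction. Because lowly expressed genes pass less easily, the numbered Zfp genes were also set beside the other genes of similar mean CPM, that is the other 12371 tested genes weighted to the same distribution over 7 CPM classes. Of those, 36.5% were higher, 35.4% were lower and 28.1% did not pass. The share lower was thus near the background, while the share higher lay under it and the share not passing over it. On log2 FPKM (fragments scaled to transcript length and library total, limma-trend with a pseudocount of 0.1) 19.9% of the numbered Zfp genes were higher and 38.2% lower, against 31.6% and 39.4% of genes of similar CPM. These shares are a description, and the difference between the numbered Zfp genes and other genes was not tested.

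The sizes of the changes were small. The log2 fold change of CYSP over CK had a median of -0.07 and an interquartile range of 0.74 over the tested numbered Zfp genes. Other genes of similar CPM had a median of 0.01 and an interquartile range of 1.12, and all genes tested had a median of 0.00 and an interquartile range of 1.07. The change stayed within 1.5-fold for 172 of 252 numbered Zfp genes (68.3%), against 51.7% of other genes of similar CPM and 53.4% of all genes tested. A change of at least 2-fold past the test was seen in 29 numbered Zfp genes (11.5%), 14 higher and 15 lower, against 27.8% of all genes tested and 29.5% of other genes of similar CPM. The CK and CYSP samples did not overlap for 156 numbered Zfp genes (61.9%), against 77% of all genes tested and 73.1% of those of similar CPM. Summed over all 281 genes, the level was 4767, 4676 and 4687 CPM in CK and 4647, 4796 and 4677 CPM in CYSP, so the groups overlapped and both means were 4710 CPM (SD 49.7 and 78.8, n = 3 per group). This balance depends on the TMM scaling: scaled to library size only, the sum was 4816 to 4900 in CK and 4490 to 4676 in CYSP, with no overlap.

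**Figure D1:**
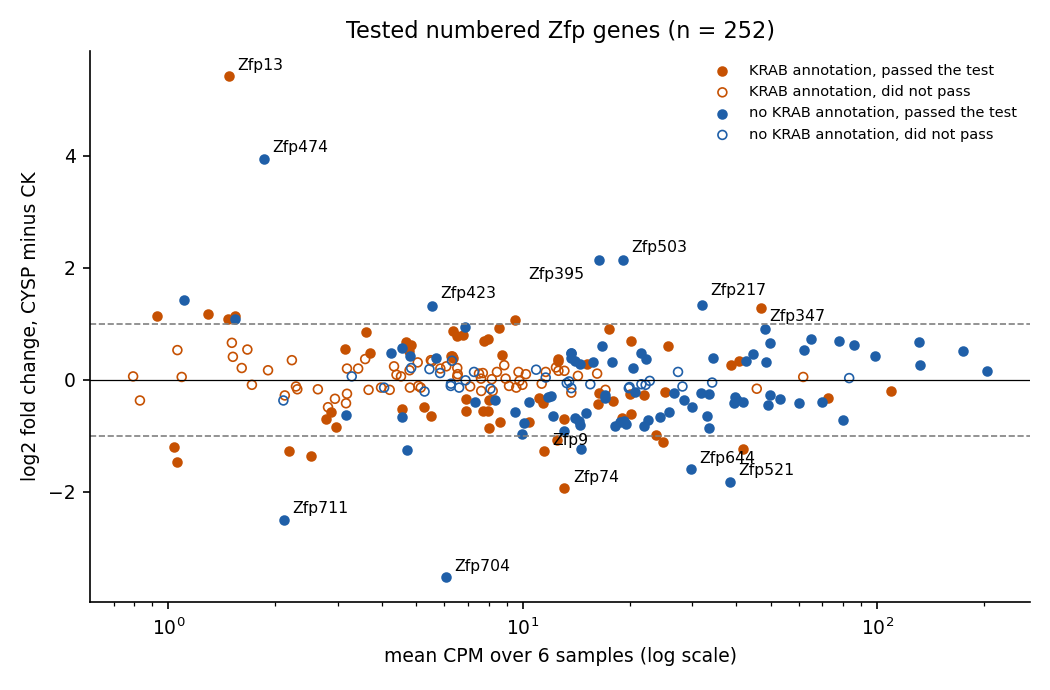
Log2 fold change (CYSP minus CK) of the 252 tested numbered Zfp genes against mean CPM over 6 samples on a log scale, filled where the test was passed and coloured by the deposited KRAB annotation. Dashed lines mark a 2-fold change, and 29 genes lie beyond them and passed the test.

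The gap to other genes was uneven across levels. Genes between 5 and 10 CPM included 63 numbered Zfp genes, of which 3 (4.76%) passed with a change of at least 2-fold, against 28.4% of the others in that class. Between 2 and 5 CPM the counts were 4 of 43 (9.3%) against 42.7%, and at 50 CPM and over they were 0 of 17 against 23%. Between 1 and 2 CPM, where a gene can pass the count filter through the group in which it is high, the shares were alike, with 9 of 17 (52.9%) against 53.7%. Direction also varied with level. Of the 49 numbered Zfp genes between 20 and 50 CPM, 27 fell (55.1%) and 15 rose (30.6%), where 39% of the other genes in that class fell and 39.4% rose. Between 10 and 20 CPM 28 of 60 fell (46.7%) and 14 rose (23.3%), against 36.7% and 36.9% of the other genes. At 50 CPM and over 6 of 17 fell (35.3%) and 9 rose (52.9%), against 45.9% and 42.7%.

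**Figure D2:**
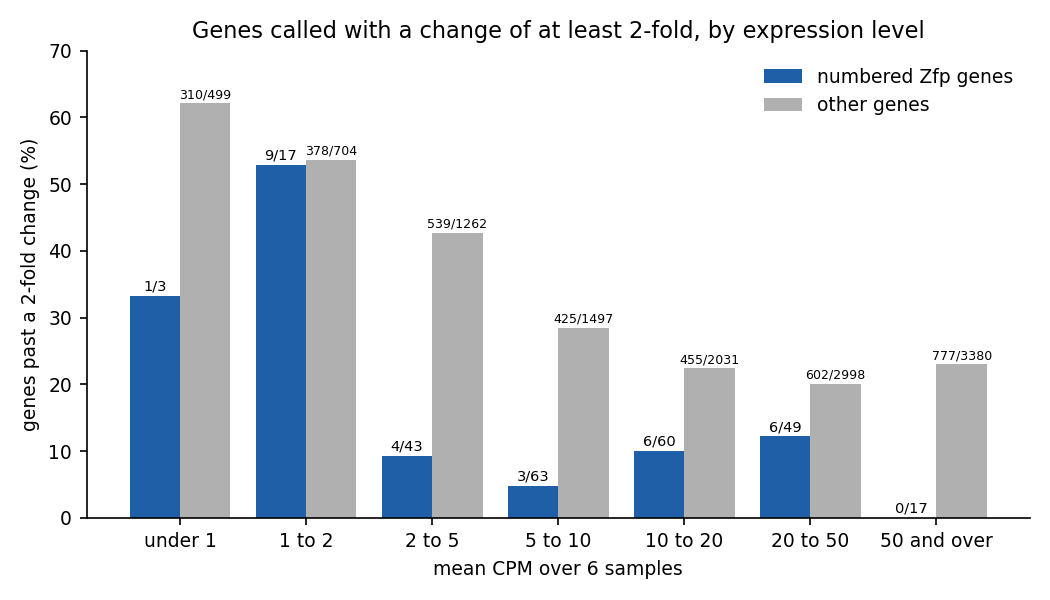
Share of genes past the test with a change of at least 2-fold, by class of mean CPM, for numbered Zfp genes and all other tested genes, with the counts above the bars. The 2 bars are of like height between 1 and 2 CPM, and the bar of the numbered Zfp genes is the lower one in the other classes, where it reaches 0 of 17 at 50 CPM and over.

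In the authors' deposited table, whose fold changes are ratios of mean FPKM, 127 of the 281 numbered Zfp genes had an adjusted p under 0.05, 38 higher and 89 lower. Over its 23091 genes the authors' deposited table had 38.1% so called, 16.3% higher and 21.9% lower. These bases are unlike, since 6878 of the 23091 genes but only 16 of the 281 had 0 counts throughout. On them the numbered Zfp genes were called more often, and lower more often, than all genes, which is the reverse of the order among tested genes. The order of the share called depends on the base. Any count was found for 265 numbered Zfp genes and 16213 genes in all, beside 127 and 8807 called, of which 89 and 5052 were lower. Past 2-fold the authors' deposited table had 10 numbered Zfp genes higher and 19 lower, beside 8.44% and 8.31% of all its genes.

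The 5 most abundant numbered Zfp genes by CPM changed by at most 1.59-fold. Zfp106, an RNA-binding protein needed by motor neurons, stood at 197, 189 and 192 CPM in CK and 209, 223 and 212 CPM in CYSP. The groups did not overlap, and the log2 fold change was 0.16 ± 0.036 (SE, edgeR adjusted p = 6.11e-05), but it did not pass on FPKM (0.07, limma adjusted p = 0.145 with a pseudocount of 0.1). Zfp91, a ubiquitin ligase of noncanonical NF-kB signalling, rose from 147, 141 and 144 CPM to 195, 213 and 207 CPM (0.51 ± 0.038, edgeR adjusted p = 1.22e-20). Zfp622, which takes part in maturation of the large ribosomal subunit, rose from 120 ± 1.4 to 144 ± 3.01 CPM (mean ± SD, n = 3), and Zfp664 from 101 ± 4.81 to 161 ± 3.94 CPM. Zfp266, the most abundant with a KRAB annotation, fell from 124, 112 and 113 CPM to 97, 105 and 103 CPM (-0.20 ± 0.045, edgeR adjusted p = 5.43e-05). Per transcript length the order of the means over 6 samples was different, with Zfp622 at 46.2 FPKM, Zfp91 at 35.6, Zfp106 at 32.2, Zfp664 at 26.3 and Zfp36 at 24.5.

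Of the 5 largest decreases 4 were in genes without a KRAB annotation, but of all 15 decreases of at least 2-fold 9 were in genes with it and 6 in genes without. Zfp704, a relative of Zfp395, had 12.2, 9.74 and 11.5 CPM in CK and 0.425, 1.49 and 1.02 CPM in CYSP. All CK samples lay far above all CYSP samples, and the log2 fold change was -3.53 ± 0.22 (edgeR adjusted p = 9.37e-24), from 561 counts in CK and 44 in CYSP. Zfp711, an X-linked partner of a histone demethylase whose loss causes intellectual disability, had 4.12, 3.14 and 3.56 CPM in CK and 0.729, 0.811 and 0.341 CPM in CYSP (-2.50 ± 0.33, edgeR adjusted p = 1.52e-10). It had 182 counts in CK and 29 in CYSP. Zfp704 and Zfp711 could pass the count filter through the CK samples, in which they are high. Zfp521, a cofactor of early B-cell factors that opposes commitment to fat cells, had 62.6, 54.6 and 62.8 CPM in CK and 16.1, 16.7 and 18.2 CPM in CYSP. The CYSP samples of Zfp521 were close together and all below the CK samples (-1.82 ± 0.074, edgeR adjusted p = 2.80e-36). Zfp644, a partner of the Ehmt histone methyltransferases, had 45.2, 44.7 and 44.3 CPM in CK and 17, 13.5 and 13.9 CPM in CYSP (-1.59 ± 0.082, edgeR adjusted p = 9.59e-30).

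With a KRAB annotation, Zfp74 fell most, from 22, 19.5 and 21 CPM in CK to 5.89, 4.73 and 5.6 CPM in CYSP (-1.94 ± 0.12, edgeR adjusted p = 9.87e-25). Zfp9 fell from 16.2 ± 2.53 to 6.74 ± 0.936 CPM, and Zfp879, Zfp619 and Zfp583 fell from between 1.57 and 3.64 CPM to between 0.557 and 1.41 CPM on average. Zfp697, which has no KRAB annotation, fell from 6.65 ± 1.57 to 2.78 ± 0.362 CPM. The other decreases of at least 2-fold were those of Zfp365, Zfp641, Zfp57, Zfp383 and 1 of the identifiers that carry the symbol Zfp84.

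The 2 largest increases were in genes that were nearly silent in CK. Zfp13, which has a KRAB annotation, had 1 count in each CK sample and between 2.55 and 3.45 CPM in the CYSP samples. Over the groups these were 3 and 133 counts, a ratio of 48.5 with a 95% counting interval of 16.2 to 238. Zfp474 had 0.339, 0.126 and 0.181 CPM in CK and 3.71, 3.24 and 3.55 CPM in CYSP. It had 11 counts in CK and 161 in CYSP, a ratio of 16 with a 95% counting interval of 8.71 to 32.7. Both genes passed the count filter through the CYSP samples, in which they are high. Among genes with more counts, Zfp503 had 7, 7.47 and 6.82 CPM in CK and 31.1, 30 and 32.6 CPM in CYSP. Zfp503, a repressor known from the developing striatum, thus separated its groups widely (2.14 ± 0.1, edgeR adjusted p = 1.29e-31). Zfp395 had 4.12, 6.78 and 7.37 CPM in CK and 27.6, 27.6 and 25 CPM in CYSP (2.14 ± 0.12, edgeR adjusted p = 2.35e-21).

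Zfp217, a repressor amplified in several cancers, rose from 16.1, 20.2 and 18.4 CPM to 47.6, 46.1 and 43.8 CPM (1.33 ± 0.078, edgeR adjusted p = 1.80e-26). Zfp347, with a KRAB annotation, rose from 27.7, 25.6 and 28.9 CPM to 63.5, 69.1 and 66.9 CPM (1.28 ± 0.064, edgeR adjusted p = 1.64e-30). Zfp575, Zfp667 and Zfp661 rose from under 1 CPM on average to between 1.63 and 2.13 CPM. At such low levels single samples decided the call: Zfp575 did not pass without CYSP replicate 3 (log2 fold change 0.94, edgeR adjusted p = 0.0776), nor did Zfp667 without CYSP replicate 1 (0.90, edgeR adjusted p = 0.0652). Zfp3, Zfp819 and Zfp52 also rose by at least 2-fold, as did 1 of the 11 identifiers with the symbol Zfp54, whose groups overlapped.

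**Figure D3:**
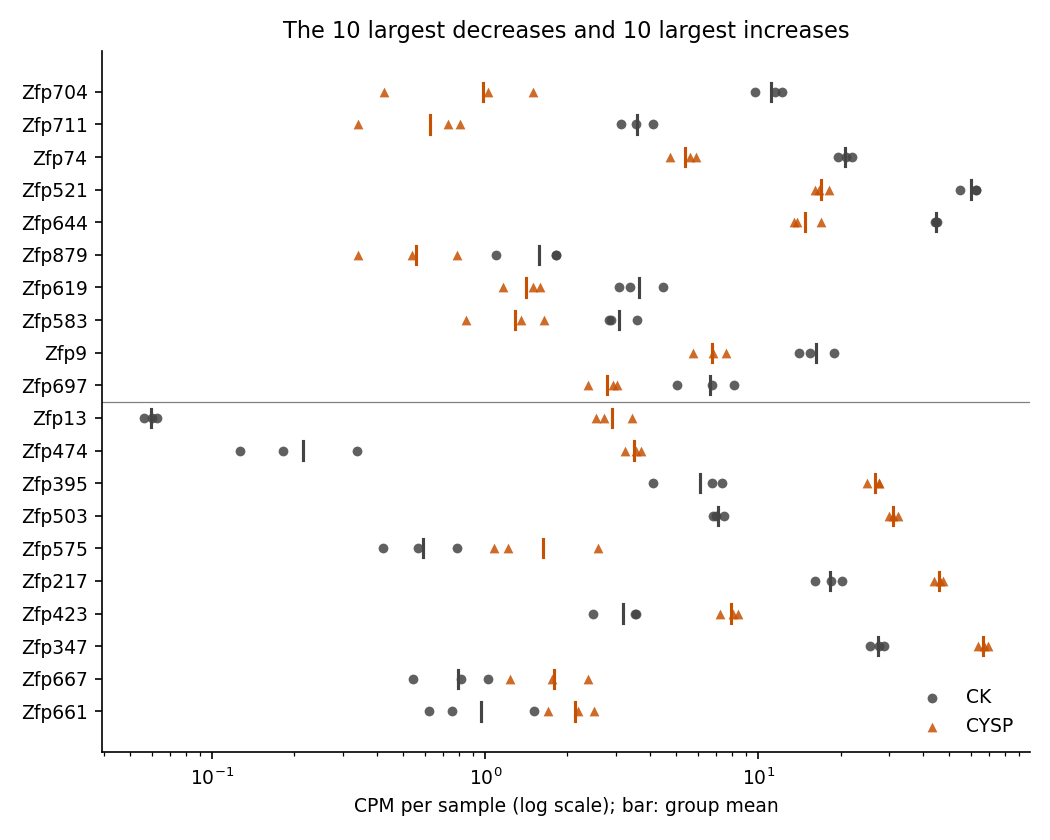
CPM per sample on a log scale for the 10 largest decreases and the 10 largest increases among numbered Zfp genes whose groups did not overlap, with points for samples and bars for group means. The gap is wide in Zfp13, Zfp474 and Zfp704, and Zfp575, Zfp667 and Zfp661 have CK and CYSP samples that lie close to each other.

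At the other end, Zfp628 had 6.77, 6.72 and 7.19 CPM in CK and 5.83, 7.37 and 7.44 CPM in CYSP. Its groups overlapped, with a log2 fold change of -0.01 ± 0.15 (edgeR adjusted p = 0.969), and Zfp875 (0.01 ± 0.14) and Zfp78 (0.02 ± 0.14) were alike. With SEs of this size a small change of these genes was not detectable at this depth.

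The promoters of 4 of these genes are printed because they differ in base composition and because the window ends where the annotated gene begins. Each is the 250 bases before the gene start in RefSeq, build GRCr8, read 5′ to 3′ on the strand of the gene. Capitals mark the motifs found, GGGCGG (the GC box) and CCAAT, on either strand.
Zfp503, chr15:2362200-2362449, plus strand: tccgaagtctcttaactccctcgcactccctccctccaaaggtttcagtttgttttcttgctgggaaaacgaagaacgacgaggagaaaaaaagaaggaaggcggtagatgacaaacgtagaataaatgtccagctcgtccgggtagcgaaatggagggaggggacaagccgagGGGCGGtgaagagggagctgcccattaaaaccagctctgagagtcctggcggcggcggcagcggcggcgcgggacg
Zfp667, chr1:76655134-76655383, minus strand: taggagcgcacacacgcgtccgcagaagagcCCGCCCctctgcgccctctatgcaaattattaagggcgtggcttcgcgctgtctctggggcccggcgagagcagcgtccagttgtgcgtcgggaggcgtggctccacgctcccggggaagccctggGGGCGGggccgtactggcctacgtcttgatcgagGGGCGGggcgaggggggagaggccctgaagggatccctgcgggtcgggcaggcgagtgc
Zfp697, chr2:188659044-188659293, plus strand: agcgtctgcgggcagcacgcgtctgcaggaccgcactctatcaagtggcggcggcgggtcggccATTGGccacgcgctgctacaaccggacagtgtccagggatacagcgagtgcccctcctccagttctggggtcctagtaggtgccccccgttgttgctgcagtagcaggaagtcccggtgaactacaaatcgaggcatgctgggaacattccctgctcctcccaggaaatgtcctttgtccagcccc
Zfp474, chr18:48239307-48239556, plus strand: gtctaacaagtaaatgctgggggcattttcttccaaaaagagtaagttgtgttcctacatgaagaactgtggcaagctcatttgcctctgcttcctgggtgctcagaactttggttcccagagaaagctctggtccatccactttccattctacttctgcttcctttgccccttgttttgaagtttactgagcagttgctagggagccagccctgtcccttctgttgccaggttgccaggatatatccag
The Zfp503 promoter has 20 CpG dinucleotides and 1 GC box, that of Zfp667 has 26 and 3 GC boxes, that of Zfp697 has 16 and 1 CCAAT box on the opposite strand, and that of Zfp474 has 0 CpG and neither motif.

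Over the 178 numbered Zfp symbols with a single RefSeq promoter entry, the median promoter held 13 CpG, against 17 in 8877 promoters of other tested genes and 6 in all 24206 promoters of the table. Of these symbols 41.6% had GGGCGG, against 60.6% of the other tested genes and 33.6% of all promoters. CCAAT was in 41.6% of them, against 35.6% and 34.4%, and in 50% of those with a KRAB annotation against 35% of those without. TATAAA was in 10.1%, against 6.06% and 13.3%, CACGTG in 6.18%, against 8.56% and 5.86%, and TGACGTCA in 1.69%, against 3.01% and 1.72%. The ETS-type motif CCGGAAG was in 14.6%, against 15.7% and 8.06%. By response, it was in 8 of 44 symbols that rose, 13 of 60 that fell and 5 of 51 that did not pass, and CCAAT in 21, 19 and 28 of them. All 6 motifs were searched on both strands of these windows, and none contains another. The symbols were taken by their single entry, whether or not the window ends where the annotated gene begins. Among the genes named here many windows do not end there, such as those of Zfp704 and Zfp131. The CpG and motif values are therefore those of the windows as listed, and need not hold for sequence next to the gene start. How far such windows shift them was not tested. The shares are descriptions, and a match is not a bound site.

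Genes with a KRAB annotation, read here from the deposited KEGG orthology entry for KRAB domain zinc finger proteins, were compared with the rest. Of 149 such genes 135 were tested: 31 rose (23%), 37 fell (27.4%) and 67 did not pass (49.6%), with a median log2 fold change of 0.05, which was -0.04 with library size only and -0.06 on FPKM. On FPKM 126 KRAB-annotated genes were tested, of which 20 rose and 41 fell. Among genes of a CPM similar to all numbered Zfp genes 31.6% rose and 39.4% fell on FPKM (pseudocount 0.1). Of the 117 tested genes without that annotation 38 rose (32.5%), 50 fell (42.7%) and 29 did not pass (24.8%), with a median of -0.12. The annotated genes were also the lower expressed, with a median of 6.9 CPM against 17 CPM. Among other genes of a CPM similar to the KRAB-annotated ones 35.6% rose, 33.7% fell and 30.7% did not pass. Among those similar to the rest 37.6% rose, 37.3% fell and 25% did not pass. The share not passing was thus near that background for the genes without the annotation and above it for those with it. Changes of at least 2-fold were rare in both, with 16 of 135 (11.9%, against 33.1% of genes of similar CPM) and 13 of 117 (11.1%, against 25.4%). The difference between the classes was not tested.

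The summed level of KRAB-annotated genes was 1512, 1447 and 1496 CPM in CK and 1390, 1454 and 1405 CPM in CYSP. That of the others was 3255, 3229 and 3191 CPM in CK and 3257, 3342 and 3272 CPM in CYSP. In the first sum the groups overlapped, and in the second the CYSP samples lay just above the CK samples. With library size only the second order turned, with 3281 to 3346 in CK and 3147 to 3258 in CYSP, and the groups of the first sum no longer overlapped, at 1490 to 1554 and 1343 to 1417. A further 79 tested genes had the KRAB annotation under other symbols: 20 rose (25.3%), 17 fell (21.5%) and 16 (20.3%) passed with at least a 2-fold change. Over all genes tested these shares were 38.2%, 37.8% and 27.8%.

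Many partners through which KRAB proteins act fell. Of 32 listed co-repressor and heterochromatin genes 30 were tested, of which 22 were lower, 5 were higher and 3 did not pass, with a median log2 fold change of -0.36 beside 0.00 over all genes tested. Over all genes tested 37.8% were lower and 38.2% higher, and among other genes at 50 CPM and over, the level of most of this list, 45.9% and 42.7%. With library size only, 3 were higher and 24 lower. Trim28, the KRAB-binding scaffold, had 178, 174 and 177 CPM in CK and 121, 113 and 118 CPM in CYSP (-0.58 ± 0.04, edgeR adjusted p = 5.32e-23). Setdb1, the methyltransferase that Trim28 recruits, fell from 44.6 ± 1.03 to 37.4 ± 2.55 CPM (-0.26 ± 0.066, edgeR adjusted p = 0.000373). The heterochromatin proteins Cbx1, Cbx3 and Cbx5 fell by 0.48, 0.48 and 0.49 on the log2 scale.

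The largest change in this list was that of Chd3, a remodelling helicase of the NuRD deacetylase complex, from 379, 371 and 371 CPM in CK to 72.9, 68.2 and 69.2 CPM in CYSP (-2.41 ± 0.038, edgeR adjusted p = 1.83e-64). Its relative Chd4 was at 382 ± 2.93 and 403 ± 6.35 CPM (0.08 ± 0.03, edgeR adjusted p = 0.0181). Hdac1, a deacetylase of the same complex, rose from 95.4 ± 2.23 to 177 ± 3.27 CPM, and Pphln1 and Atrx rose by less. Dnmt1 and Uhrf1, which maintain DNA methylation and are most active in dividing cells, fell by 0.80 and 1.16 on the log2 scale. The 3 cycling markers fell in the same samples, and their part in these decreases was not tested.

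Roles known from other work were used to sort the members with a described function. The lists were chosen with earlier results of these data known, so their counts describe the listed genes only. Of 10 genes with mesenchymal, fat or skeletal roles, 6 rose and 4 fell, and 4 of these changes reached 2-fold. These lists are short, and over all genes tested 38.2% were higher, 37.8% lower and 27.8% past 2-fold. Zfp423, a determinant of preadipocytes, had 2.48, 3.52 and 3.56 CPM in CK and 8.08, 8.45 and 7.24 CPM in CYSP (1.32 ± 0.18, edgeR adjusted p = 7.70e-10). Zfp467, which favours fat over bone formation, rose from 3.61, 4.59 and 5.86 CPM to 9.17, 10.6 and 7.31 CPM (0.95 ± 0.17, edgeR adjusted p = 5.32e-07). Zfp516, a regulator of brown fat, rose from 49 ± 3.21 to 80.9 ± 2.25 CPM. Zfp395 and Zfp217 (values above) and Zfp219 (0.32 ± 0.098) rose as well, the last not passing on FPKM (limma adjusted p = 0.0663 with a pseudocount of 0.1). Zfp521, Zfp260 (-0.71 ± 0.053), Zfp148 (-0.45 ± 0.062) and Zfp384 (-0.31 ± 0.066), a regulator of matrix genes, fell. Adipoq rose in the same samples, whereas the fat-cell marker Plin1 was at 0 in CYSP.

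Of 12 genes listed for neural roles, 9 were tested, 3 rose and 6 fell, beside 38.2% and 37.8% of all genes tested. Zfp503, Zfp462 (from 59.4 ± 3.66 to 96.5 ± 4.76 CPM) and Zfp292 (from 50.8 ± 2.67 to 73.8 ± 4.11 CPM) rose. Zfp365, a centrosomal protein of neurite growth, had 20, 22.3 and 19.4 CPM in CK and 8.62, 8.51 and 9.01 CPM in CYSP (-1.24 ± 0.11, edgeR adjusted p = 5.52e-17). The CYSP samples of Zfp365 were all below the CK samples. Zfp711, Zfp827 (-0.87 ± 0.074), Zfp335 (-0.79 ± 0.095), which is needed by neural progenitors, Zfp703 (-0.68 ± 0.11) and Zfp24 (-0.48 ± 0.076), a factor of myelination, fell too. Zfp536 had at most 0.425 CPM in any sample and Zfp488 had no count, a limit of 0.205 CPM in the sample with the fewest counts, so neither was tested. Zfp238 was not analysed here.

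Of 14 genes listed for chromatin, imprinting or pluripotency, 12 were tested: 2 rose, 7 fell and 3 did not pass, beside 38.2% higher and 37.8% lower of all genes tested. Zfp57, a KRAB protein that keeps methylation at imprinted loci, had 34.6, 31.9 and 35.6 CPM in CK and 14.3, 17.9 and 15.1 CPM in CYSP (-1.11 ± 0.088, edgeR adjusted p = 1.30e-19). Zfp445, which shares that role, fell from 59.7 ± 2.66 to 46.9 ± 1.63 CPM (-0.35 ± 0.058). Zfp644 and Zfp131 (-0.65 ± 0.074) also fell, and Zfp281, a regulator of pluripotency, rose from 67.6 ± 1.37 to 105 ± 6.13 CPM. Zfp410, an activator of Chd4, was at 34.6 ± 3.39 and 29.2 ± 0.432 CPM (-0.24 ± 0.075, edgeR adjusted p = 0.00283), and it did not pass without CK replicate 3 (edgeR adjusted p = 0.0623). Zfp143 did not pass (-0.08 ± 0.1). Zfp42, a marker of embryonic stem cells, had 0 counts in 5 of the 6 samples and was not tested, and Zfp568 was not analysed here.

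Of 15 genes listed for RNA, ribosome, ubiquitin or spindle roles 14 were tested: 7 rose, 3 fell and 4 did not pass, beside the same background, with no change of 2-fold. With library size only 5 rose and 3 fell, and on FPKM 5 rose and 4 fell of 13. Zfp598, the ubiquitin ligase that marks collided ribosomes, rose from 38.4, 36 and 41.6 CPM to 59.7, 61.2 and 61.7 CPM (0.65 ± 0.061, edgeR adjusted p = 4.33e-16). Zfp36, tristetraprolin, which speeds the decay of inflammatory mRNAs, rose from 39.4, 35.5 and 37.6 CPM to 49.4, 50.8 and 55.1 CPM (0.46 ± 0.064, edgeR adjusted p = 1.00e-09). Zfp346, Zfp91, Zfp622 and Zfp106 rose, and Zfp451, Zfp318 and Zfp330 fell by 0.26 to 0.37 on the log2 scale. Zfp277 passed with overlapping groups (0.21 ± 0.094, edgeR adjusted p = 0.0354), but not without CK replicate 3 or without CYSP replicate 2 (edgeR adjusted p = 0.184 for both), nor without CYSP replicate 3 (0.0757). Zfp473, Zfp326, Zfp830 and Zfp593 did not pass, and Zfp207 was not analysed here.

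**Figure D4:**
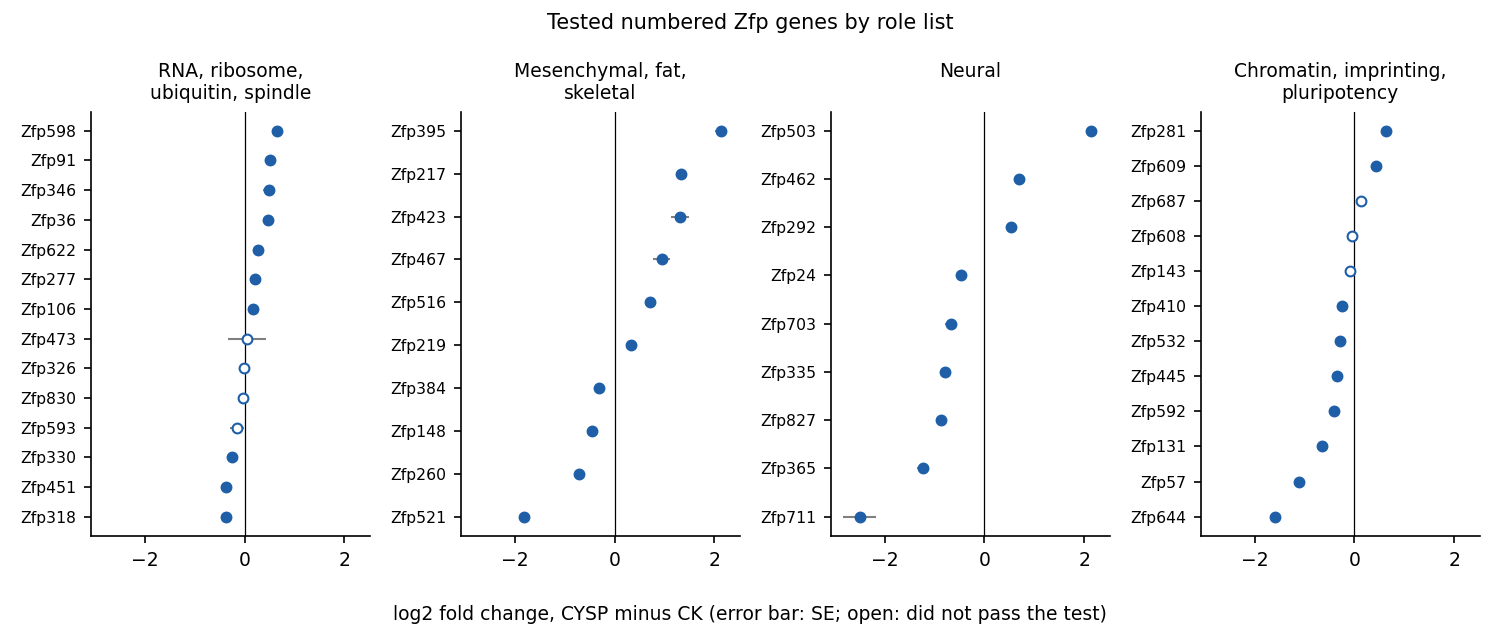
Log2 fold change (CYSP minus CK) with its SE for the tested numbered Zfp genes of the 4 role lists, filled where the test was passed. The RNA and ribosome list stays between -0.37 and 0.65, and the mesenchymal list spans -1.82 to 2.14.

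Some close relatives moved in opposite directions. These 7 sets of relatives were chosen after their values were seen, and no test was made of how often relatives differ. Zfp423 rose and Zfp521, its close relative and fellow cofactor of early B-cell factors, fell. Per transcript length Zfp521 had 13.4 ± 1.02 FPKM in CK and 3.6 ± 0.171 in CYSP, and Zfp423 had 0.715 ± 0.136 and 1.6 ± 0.0721, so Zfp521 stayed the higher of the 2 in both groups. Zfp395 rose from 3.15 ± 0.898 to 13 ± 0.717 FPKM while Zfp704, of the same small family, fell from 2.16 ± 0.243 to 0.18 ± 0.0982 FPKM. Their levels were near each other in CK and far apart in CYSP.

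In the NET family of repressors, Zfp503 rose from 2.35 ± 0.114 to 9.78 ± 0.398 FPKM and Zfp703 fell from 5.54 ± 0.429 to 3.26 ± 0.44 FPKM, so the order of the 2 reversed. Of the GC-box binding relatives, Zfp281 rose (0.63 ± 0.049 on the log2 CPM scale) and Zfp148 fell (-0.45 ± 0.062). The remaining sets did not split into a gene that rose and one that fell. Zfp609 rose (0.43 ± 0.047) and its relative Zfp608 did not pass (-0.05 ± 0.073, edgeR adjusted p = 0.511). Zfp532 and Zfp592 fell (-0.28 ± 0.063 and -0.42 ± 0.067), and the related Zfp687 did not pass (0.14 ± 0.079, edgeR adjusted p = 0.113). Zfp362 and Zfp384 both fell, by 0.97 and 0.31 on the log2 scale.

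**Figure D5:**
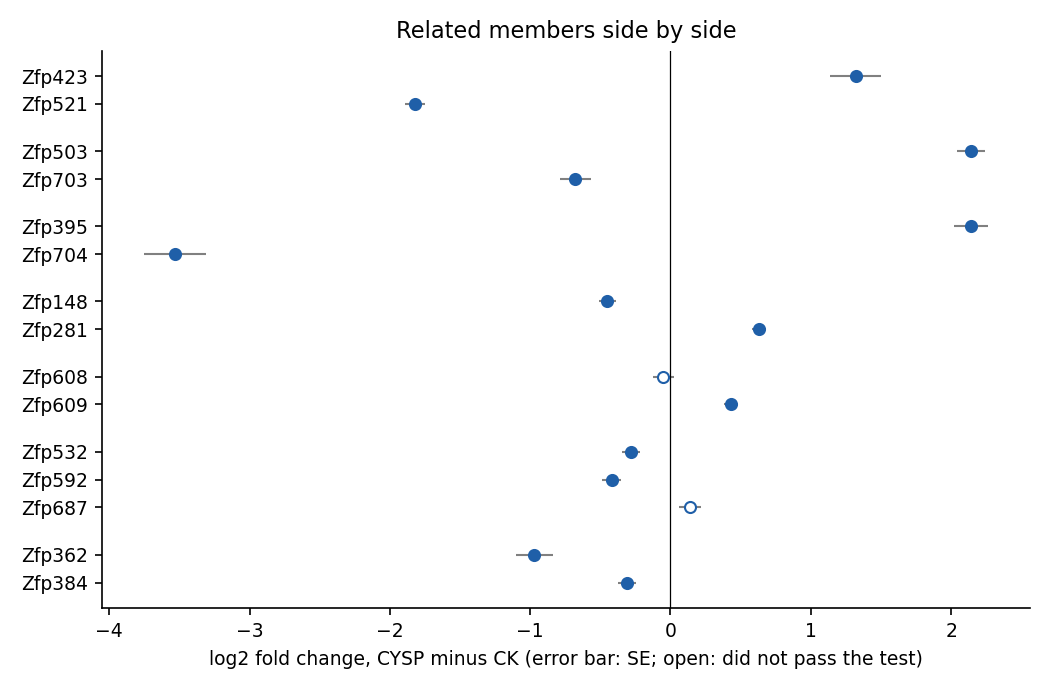
Log2 fold change (CYSP minus CK) with its SE for 7 sets of related numbered Zfp genes, filled where the test was passed. In the upper 4 sets 1 gene rose and 1 fell, and in the lower 3 no such split is seen.

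Zfp genes lie in clusters along the genome, and some runs of neighbours held genes of both directions. In RefSeq gene order 227 symbols could be placed, and 102 of them lay in 34 runs with at most 2 other protein-coding genes between members. Of these runs 10 held both genes that rose and genes that fell, 20 held calls in 1 direction and 4 held none. Most of those 20 held a single call, which can have only 1 direction, so they do not show neighbours moving together. Of the 97 tested genes in runs 24 rose (24.7%) and 34 fell (35.1%), with a median of -0.11. Outside runs 35 of the 113 tested rose (31%) and 43 fell (38.1%), with a median of -0.08. Over all genes tested 38.2% were higher and 37.8% lower. In the run of 9 from Zfp790 to Zfp382, 3 rose, 3 fell and 3 did not pass, and Zfp74 at -1.94 marks its lower end. In the other run of 9, from Zfp786 to Zfp862, 2 rose, 4 fell and 3 did not pass, with Zfp467 as the highest at 0.95. A run of 5 that holds Zfp266 had 4 that fell and 1 that rose, and a run of 5 from Zfp799 to Zfp563 had 1 that rose and 4 that did not pass. The 13 symbols that stand on several identifiers, 40 genes of which 28 were tested, are uncertain, since reads may have been split between copies: 6 rose, 7 fell and 15 did not pass.

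Other zinc finger families named by a shared symbol are given for comparison, beside 38.2% higher and 37.8% lower over all genes tested. Of 45 tested genes with the symbol Znf and a number 18 rose and 6 fell, with a median of 0.15. Of these, 34 carry the single symbol Znf431, of which 17 rose and 3 fell, and their values are uncertain as reads may have been split between copies. Of the other 11 Znf genes 1 rose and 3 fell. Of 32 Zbtb genes, which pair fingers with a protein interaction domain, 4 rose and 14 fell. Of 13 Klf genes 2 rose and 10 fell (median -0.58), and of 9 Sp genes 2 rose and 6 fell (median -0.50). Klf proteins bind GC-rich promoter boxes. The Sp genes were picked by symbol alone, which 12 genes matched, so genes outside the zinc finger family of that name may be among them. Changes of at least 2-fold made up 22.2% of the Znf, 9.38% of the Zbtb, 30.8% of the Klf and 33.3% of the Sp genes, beside 11.5% of the numbered Zfp genes and 27.8% of all genes tested. The differences between families were not tested.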

How the data were processed

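Oligo(dT)-enriched RNA of 6 samples was sequenced, per the labels' protocols. The submitters' processing notes name fastp 0.18.0, HISAT2, StringTie 1.3.1 and RSEM without saying what each did. Not given in the sources used here are the counting tool, its use of strand, the genome build and the authors' test, so overlapping or antisense genes may not be told apart. Each gene has whole-number read counts and FPKM for every sample in the deposited table, per the file headers. They would be rounded estimates by the authors if they came from RSEM. The same deposited table holds the authors' group means of FPKM, a log2 fold change (their log2 ratio), and a p-value with its adjusted form.

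Samples were grouped by title. Deposited counts of 23091 genes were tested with edgeR 4.0.16 in R 4.3.3 (filterByExpr, TMM, robust glmQLFit, glmQLFTest). The 12623 genes kept shared 1 Benjamini-Hochberg adjustment, at a threshold of 0.05. CPM values are TMM-scaled. The SE is the log2 fold change divided by the root of F, which is too small where a group has few counts. For Zfp13 and Zfp474, with few counts in CK, the ratio has an exact 95% counting interval (Clopper-Pearson). Genes of similar mean CPM were taken in 7 classes of the mean over 6 samples. The KRAB split was planned on protein sequence. As no protein sequences were used here, it was taken from the deposited annotation, which may miss genes that code for the domain. Promoter sequences and gene order come from RefSeq, GRCr8. Of the 281 genes, 228 (203 symbols) had a promoter entry, and 178 symbols had exactly 1.

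The genes named are the 10 largest changes in each direction (past the threshold, groups apart, 1 CPM or more on average), the 5 most abundant, the 3 smallest changes at 5 CPM or more, and the role lists. Other genes that are named were chosen after their values were seen. A listed gene is not reported here by name. The members and lists were chosen with earlier results of these data known. Alternatives were other scalings, DESeq2 1.42.0, limma-voom and limma-trend (limma 3.58.1) on log2 FPKM (mean of 0.5 or more), other count filters and classes of similar genes, leaving out single samples, a replicate block and an assumed coefficient of variation. Replicates of a group differed by more than sampling noise (chi-square per degree of freedom 2.1 to 2.79). The test was tried on simulated counts for 12623 genes with 200 changed, of which it recovered 48% at 1.2-fold, 74% at 1.5-fold, 88% at 2-fold and 98% at 4-fold. The changed genes were drawn over all levels and were far fewer than the 76.1% that passed in the data. These rates therefore need not hold for the numbered Zfp genes.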

Additional observations from a re-analysis of the deposited data

How the results depend on the processing

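The common coefficient of variation between these samples was 0.0393. With an assumed value of 0.2, 34 numbered Zfp genes rose and 46 fell, of the KRAB-annotated ones 19 rose and 19 fell, of the co-repressor genes 1 rose and 7 fell, and of the other zinc finger families 25 rose and 28 fell, where 38 and 52 did as reported. With 0.4 these counts were 8 and 9, 2 and 5, 0 and 1, and 10 and 6, and 8 rose and 9 fell by at least 2-fold. With 0.2, 13.5% of numbered Zfp genes rose and 18.3% fell, against 25.2% and 22.6% of genes of similar CPM. With 0.4 these shares were 3.17% and 3.57%, against 12.3% and 10.2%. On FPKM (limma-trend, both pseudocounts) 20 KRAB-annotated genes and 2 co-repressor genes rose, and 6 (pseudocount 0.1) or 4 (pseudocount 1) numbered Zfp genes rose by at least 2-fold. With library size only, 3 co-repressor genes rose. With a filter of 50 counts in 3 samples, 6 numbered Zfp genes rose by at least 2-fold.

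The median log2 fold change of the numbered Zfp genes was -0.15 with library size only, -0.09 with upper-quartile scaling, -0.16 and -0.11 on FPKM with pseudocounts of 0.1 and 1, and -0.03 with no filter. That of genes of similar CPM was -0.07, -0.01, -0.08 and -0.07 under the first 4 of these, and -0.0042, -0.03 and 0.04 with classes of FPKM, CPM classes crossed with length, and classes of CK CPM. The share lower among genes of similar CPM was 36.4% with 50 counts, 32.9% with DESeq2, 22.6% and 10.2% with coefficients of 0.2 and 0.4, 39.3% with library size only, 36.3% with upper-quartile scaling, 39.4% and 39.6% on FPKM, 33.9% with no filter, 38.2% with length crossed and 33.8% with classes of CK CPM. Their share past a 2-fold change was 27.4% with 50 counts, 22.6% with a coefficient of 0.4, 27.4% and 18.3% on FPKM, 28.7% with no filter, 31.9% with classes of FPKM and 31.6% with length crossed. Under every one of the count and FPKM settings the numbered Zfp genes had the smaller share past 2-fold, between 5.81% and 11.9%. The causes of these shifts were not tested.

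With each sample left out, 60 to 64 numbered Zfp genes rose and 79 to 85 fell, 12 to 14 and 15 to 16 by at least 2-fold, and the median was -0.07 to -0.04. Of KRAB-annotated genes 26 to 28 rose and 31 to 37 fell, of co-repressor genes 4 to 5 and 21 to 23, and of the other families 34 to 40 and 46 to 50. Among genes of similar CPM 33.4% to 34.1% fell and 29.3% to 29.8% passed 2-fold, with a median of 0.01. With the replicate number as a block 68 rose and 86 fell. Deviations of same-numbered samples correlated at -0.000633, 0.0185 and -0.00885, so no shared shift by number was seen. With 3 samples per group this cannot show whether the samples were paired by design.

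Of the 63 named genes tested, 24 kept their result in every alternative that tested them, and none changed direction past the threshold. Those 24 include genes that did not pass as reported, such as Zfp143, Zfp326, Zfp628 and Zfp875. The KRAB split on protein sequence and its stricter form were not run. Genes under about 2 CPM rest on few counts.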
